A study of Mus musculus with 9 samples.

Results

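The EGR, FOS and JUN immediate early genes were examined in LLC, a Lewis lung carcinoma cell line of the mouse, with and without CD47. Members were taken by gene name: Egr1, Egr2, Egr3, Fos, Fosb, Fosl1, Fosl2, Jun, Junb and Jund, which are 10 of the 50813 genes in the deposited count table. CD47 is a membrane protein that signals to phagocytes through SIRPα. Its gene was disrupted by electroporating Cas9 and a guide RNA into the cells, and the paper reports frameshifts that truncate the protein. RNA-seq libraries came from 3 lines grown in culture: WT, CD47 KO clone E3 and CD47 KO clone E5, with 3 libraries of each. All were kept in DMEM with serum and antibiotics, with no other treatment named. The paper describes the KO lines as derived from single cells, and each KO is 1 clone. The CD47 genotype and differences between clones therefore cannot be told apart beyond setting the KO clones side by side. The paper's methods name 1 guide RNA for the mouse clones. Effects of editing or cloning that both clones share cannot be told apart from the genotype either. The study's methods describe the replicates as independent biological ones, so p-values measure the spread between replicates of a line and not between independently derived lines.

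Immediate early genes are transcribed within minutes of a growth factor or stress signal, without new protein synthesis. ERK phosphorylates ternary complex factors such as ELK1, which sit with SRF on serum response elements in the promoters of Egr1 and Fos. EGR proteins are zinc finger factors that bind GC-rich DNA. FOS and JUN proteins pair through leucine zippers to form AP-1, and in carcinoma cells AP-1 drives genes of invasion and matrix turnover. JUN proteins can pair with each other, whereas FOS proteins need a JUN partner.

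Total counts were 44257404 to 55095219 per library. Cd47 itself, the targeted gene, had 182 ± 3.92 CPM (read counts scaled to library size by the TMM method; SD, n = 3) in WT cells, 44.6 ± 6.87 in KO clone E3 and 17.4 ± 1.66 in KO clone E5. All 3 libraries of KO clone E3 and all 3 of KO clone E5 were below every WT library. Replicate 3 of KO clone E3 stood apart: its pairs with the other E3 replicates had chi-square values of 172 and 208 per degree of freedom, against 4.49 to 35.4 for the other pairs. Mesenchymal carcinoma markers were present (4 of 4 passed the filter), lymphocyte and endothelial markers did not pass it, and of the macrophage markers only Cd68 did. Of the 5 epithelial markers, Epcam had 0 counts in every library and Cdh1 had 0 to 6 counts per library, and neither passed the filter. Krt8, Krt18 and Krt19, keratins of epithelial cells, summed to 451 to 459 CPM in WT, 128 to 199 in KO clone E3 and 896 to 958 in KO clone E5. The part of that difference in the results below was not tested.

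The promoters of Jun, Junb and Fosb are shown because they hold letters that transcription factors are known to bind, and because these genes behaved differently from each other in the counts. Each is the 250 bases before the RefSeq start of the gene (sequence table of GRCm38.p6). Each matched 1 place on its own chromosome in GRCm39, and the other chromosomes were not searched for it. The Jun promoter lies at chr4:94940460-94940709 and the Junb promoter at chr8:85705378-85705627. The Fosb promoter lies at chr7:19043971-19044220, and all 3 are on the minus strand. Capitals mark every match to the motifs searched on both strands.
Jun: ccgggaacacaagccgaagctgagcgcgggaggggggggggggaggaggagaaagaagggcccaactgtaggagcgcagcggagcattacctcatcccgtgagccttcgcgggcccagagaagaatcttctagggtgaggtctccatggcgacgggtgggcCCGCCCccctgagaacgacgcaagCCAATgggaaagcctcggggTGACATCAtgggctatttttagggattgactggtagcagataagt
Junb: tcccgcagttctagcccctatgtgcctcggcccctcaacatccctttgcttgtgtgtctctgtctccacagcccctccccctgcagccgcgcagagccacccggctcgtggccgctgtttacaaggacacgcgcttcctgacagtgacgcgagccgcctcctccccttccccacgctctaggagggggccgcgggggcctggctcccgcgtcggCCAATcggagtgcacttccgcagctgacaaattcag
Fosb: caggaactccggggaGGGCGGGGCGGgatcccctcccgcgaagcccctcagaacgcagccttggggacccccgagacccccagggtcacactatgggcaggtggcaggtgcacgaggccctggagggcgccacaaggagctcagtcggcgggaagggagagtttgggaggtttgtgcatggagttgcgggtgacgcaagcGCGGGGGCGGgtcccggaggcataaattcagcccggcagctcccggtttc

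The Jun promoter held the 8-base AP-1 and CREB element TGACNTCA from -45 to -38 relative to the start, a match found in 7.49% of 32851 promoters of the same length. CCAAT stood in both Jun and Junb (33.8% of promoters). GGGCGG, which SP1 binds, stood in Jun on the opposite strand from -89 to -84. The EGR letters GCGNGGGCG stood in Fosb from -50 to -42, overlapping GGGCGG, and in Fosl2 from -79 to -71 (4.7% of promoters for GCGNGGGCG and 32.7% for GGGCGG). The Fos promoter held TATAAA from -33 to -28 (12.4% of promoters) and GGGCGG on the opposite strand from -74 to -69. Of the 5 promoters listed for Egr2, 4 held a CArG box, the letters that SRF binds, against 1.47% of all promoters, and 3 of these 4 windows overlap and hold the same box. TGANTCA, in 6.75% of promoters, had no match in the members' windows, and CCGGAA, in 12.0%, matched only in an Egr2 window. Egr1, Egr3 and Fosl1 were not searched.

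Of the 10 members, 9 passed the filter on low counts and were tested, and Egr2 did not pass it. The plot of CPM by library shows every value.

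**Figure D1:**
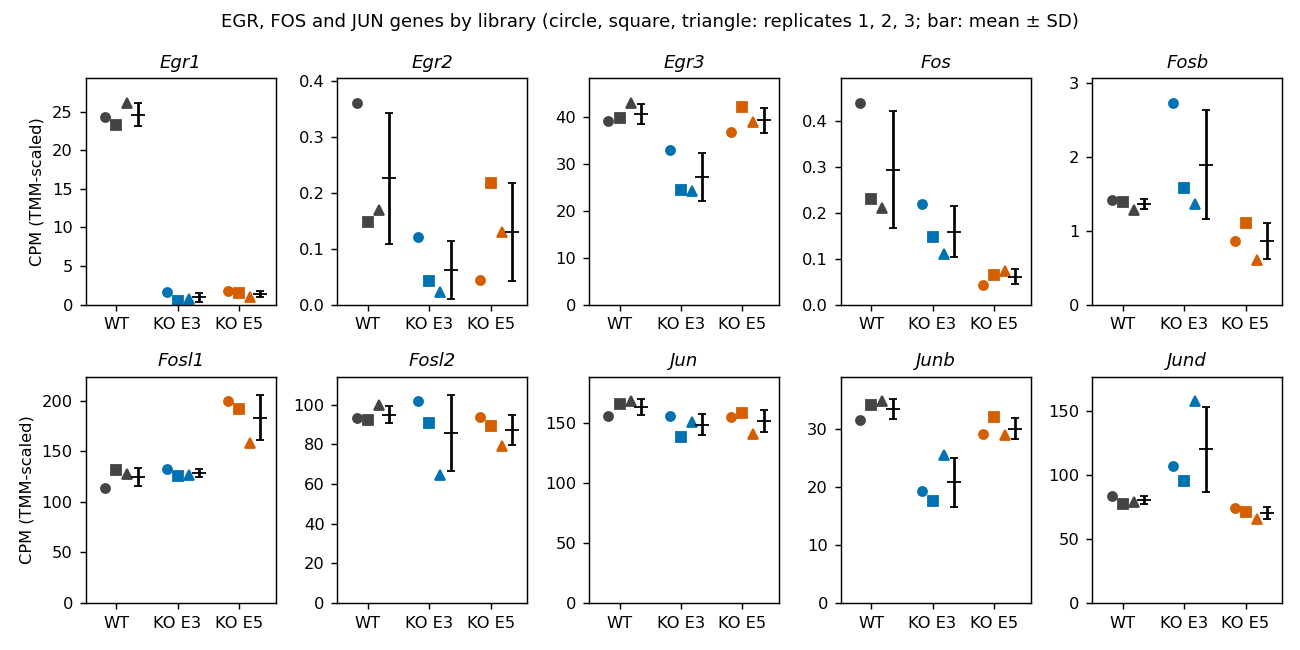
Level of each EGR, FOS and JUN gene in every library (vertical axis, CPM on TMM-scaled library sizes, from 0 and with its own range in each panel; horizontal axis, line), with the mean and SD of 3 replicates beside each group. Egr1 stands at 23.2 to 26.2 CPM in WT cells and at 1.70 or below in the 6 KO libraries, while Jun lies between 139 and 168 CPM in all 9.

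Per kilobase of its GENCODE canonical transcript, Fosl1 had the highest level in WT cells, at 66.8 ± 4.90 CPM per kb (SD, n = 3). Fosl1 encodes FRA-1, the FOS protein most tied to mesenchymal carcinoma cells. Jun followed at 51.2 ± 2.16 and Jund at 48.0 ± 1.91 CPM per kb, and the libraries of these neighbours overlapped. Below them stood Junb at 18.5 ± 0.958, Fosl2 at 13.6 ± 0.603, Egr3 at 9.34 ± 0.484 and Egr1 at 5.47 ± 0.331 CPM per kb, with no overlap between neighbours. Fosb was at 0.361 ± 0.0185, and Fos at 0.139 ± 0.0601 overlapped with Egr2 at 0.0759 ± 0.0395 CPM per kb. The classical Fos gene was therefore among the least abundant members in unperturbed cells, at 10 to 22 counts per library.

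In KO clone E3 the order by level per kb began with Jund at 71.9 ± 19.9 and Fosl1 at 69.0 ± 1.95 CPM per kb, which overlapped, as did Fosl2 with Junb and Egr1 with Fos. In KO clone E5 it began with Fosl1 at 98.4 ± 11.8 CPM per kb, apart from Jun at 47.5 ± 2.89, and the overlapping neighbours were Jun and Jund, Egr1 and Fosb, and Egr2 and Fos. Egr1 stood just above Fosb in KO clone E5 and below it in KO clone E3.

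CD47 KO clone E3 was compared with WT cells across 14593 genes with edgeR's quasi-likelihood test, and genes with a Benjamini-Hochberg adjusted p under 0.05 were called. Of the 9 members tested, 3 were lower (Egr1, Egr3 and Junb) and 1 was higher (Jund), beside 30.5% of all tested genes called, 15.7% higher and 14.7% lower. Under the study's DEG threshold, which adds an absolute log2 fold change above 1, only Egr1 was called, beside 9.82% of all genes, 5.43% higher and 4.39% lower. The median log2 fold change was -0.15 over the members and 0.01 over all genes. The libraries did not overlap between the lines for 4 of the 9 members and for 45.4% of all genes.

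KO clone E5 was compared with WT cells in the same model. Here Egr1 and Fos were lower and Fosl1 was higher, 3 of the 9 members, beside 20.6% of all genes called, 8.96% higher and 11.7% lower. Egr1 and Fos met the DEG threshold, beside 8.21% of all genes, 2.69% higher and 5.52% lower. The median log2 fold change was -0.16 over the members and 0.00 over all genes. Libraries did not overlap for 5 of the 9 members and for 55.4% of all genes. Both comparisons share the WT libraries, so the values of each are given side by side below.

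**Figure D2:**
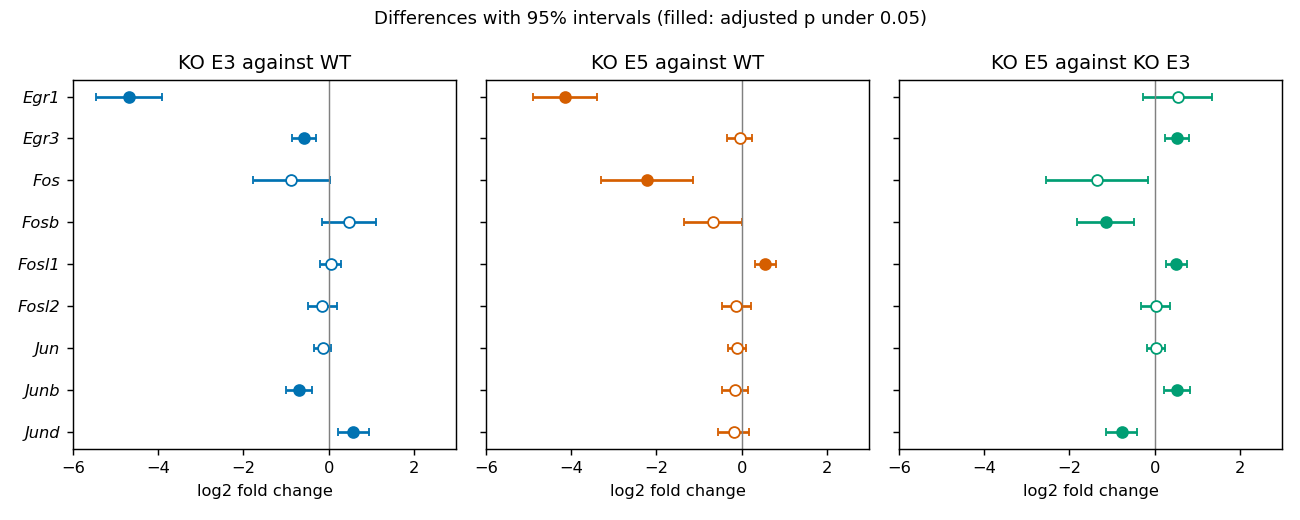
Log2 fold change of the 9 tested members (horizontal axis, with 95% intervals from edgeR) in each of the 3 comparisons, with filled points for an adjusted p under 0.05. Egr1 is at -4.68 in KO clone E3 and -4.14 in KO clone E5, and the intervals of Jun and Fosl2 include 0 in every panel.

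Egr1 (ENSMUSG00000038418) encodes a zinc finger factor that serum and ERK activity induce, and it had the widest difference of the members. The gene spans bases 34992876 to 34998037 of chromosome 18 in GRCm39 (plus strand), as deposited, with 2 exons in its canonical transcript. WT libraries held 1216, 1105 and 1241 counts, KO clone E3 held 81, 22 and 35, and KO clone E5 held 79, 71 and 52. Those are 24.4, 23.2 and 26.2 CPM in WT, 1.62, 0.465 and 0.770 CPM in KO clone E3, and 1.70, 1.54 and 0.962 CPM in KO clone E5. All 6 KO libraries were far below every WT library, and replicate 1 of KO clone E3 was the highest of its clone.

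The Egr1 level was 25.6-fold lower in KO clone E3 than in WT (log2 fold change -4.68, SE 0.351, adjusted p = 1.631e-05 by edgeR). It was 17.6-fold lower in KO clone E5 (log2 fold change -4.14, SE 0.336, adjusted p = 1.479e-05). In fold, Egr1 ranked 16 of 331 lower DEGs with a mean log2 CPM above 1 in KO clone E3, and 87 of 309 in KO clone E5. The clones were not called different from each other, with KO clone E5 higher by 0.54 on the log2 scale and a 95% interval from -0.28 to 1.36 (adjusted p = 0.2973). Without replicate 1 of KO clone E3 that difference was 1.17 and was called (adjusted p = 0.01791). Of 18 tested genes within 500 kb of Egr1, 4 were higher and 2 lower in KO clone E3, beside 15.7% and 14.7% of all genes. Their median log2 fold change was 0.01. Of the same 18, 1 was higher in KO clone E5 and none was lower, beside 8.96% and 11.7% of all genes, with a median of 0.10.

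Egr3, an EGR gene that is also induced by ERK and calcium signals, spans bases 70314652 to 70319999 of chromosome 14 (plus strand). Egr3 stood at 39.1, 39.8 and 43.0 CPM in WT, 33.0, 24.4 and 24.2 CPM in KO clone E3, and 36.8, 42.2 and 39.0 CPM in KO clone E5. The E3 libraries were below all others, and those of KO clone E5 overlapped with WT. Egr3 was 1.49-fold lower in KO clone E3 than in WT (log2 fold change -0.58, SE 0.129, adjusted p = 0.007209). Against WT, KO clone E5 had a log2 fold change of -0.05, with a 95% interval from -0.33 to 0.24 (adjusted p = 0.8378). The clones differed by 0.53 on the log2 scale (SE 0.129, adjusted p = 0.01049), a call that was lost without replicate 2 of KO clone E5 (adjusted p = 0.05004).

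Egr2, which myelinating Schwann cells and T cells use, spans bases 67371305 to 67378018 of chromosome 10 (plus strand) and was near the detection limit. It had 18, 7 and 8 counts in WT, 6, 2 and 1 in KO clone E3, and 2, 10 and 7 in KO clone E5. The E3 libraries were below the WT libraries, and those of KO clone E5 overlapped with both. The summed counts gave a ratio of KO clone E3 to WT of 0.277, with a 95% interval from 0.116 to 0.591 that covers counting error only. For KO clone E5 the ratio was 0.569, from 0.306 to 1.03. Where other settings let the gene into the fit, it was called once, in KO clone E3 against WT without replicate 1 of that clone (adjusted p = 0.0442).

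Summed per kb, the EGR family stood at 14.9 ± 0.770 CPM per kb in WT cells, 6.48 ± 1.30 in KO clone E3 and 9.39 ± 0.644 in KO clone E5. Egr1 made up 36.8% ± 0.700 (SD, n = 3) of the family in WT cells, 3.10% ± 1.36 in KO clone E3 and 3.33% ± 0.979 in KO clone E5. Egr3 made up 96.6% and 96.2% of what was left in the 2 clones.

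**Figure D3:**
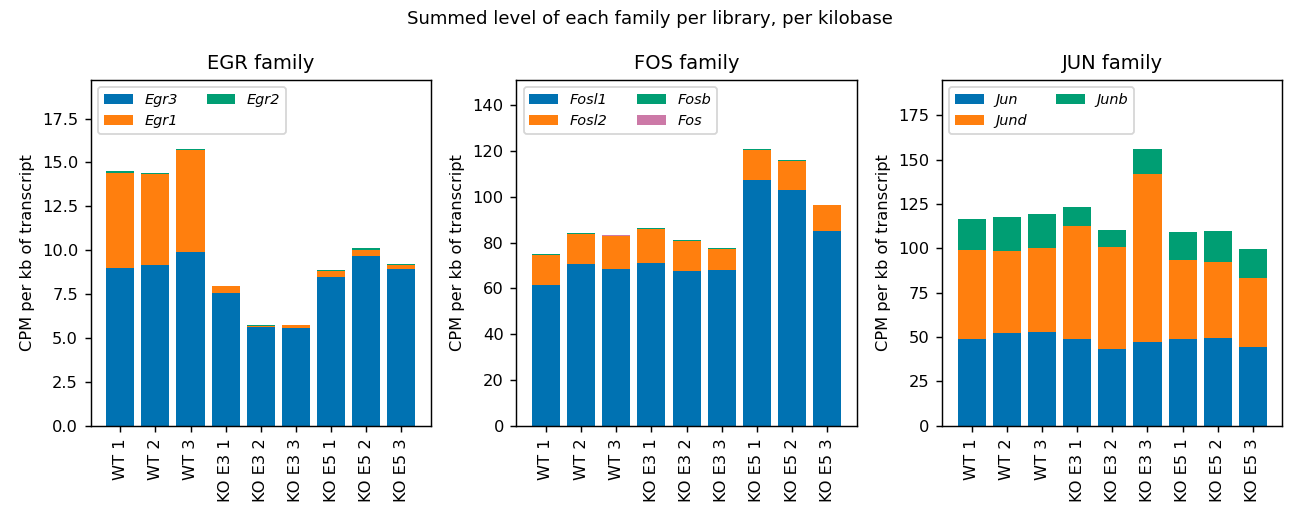
Level of the EGR, FOS and JUN families in each of the 9 libraries (vertical axis, CPM per kb of canonical transcript, from 0), stacked by gene. The EGR bars of the 6 KO libraries consist almost wholly of Egr3, Fosl1 fills most of every FOS bar, and replicate 3 of KO clone E3 has the tallest Jund segment.

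Fos, the founding AP-1 member, spans bases 85520664 to 85524047 of chromosome 12 (plus strand), with 4 exons. It had 22, 11 and 10 counts in WT, 11, 7 and 5 in KO clone E3, and 2, 3 and 4 in KO clone E5. KO clone E5 was below both other lines in every library, and KO clone E3 overlapped with WT. Fos was lower in KO clone E5 than in WT (log2 fold change -2.22, SE 0.486, adjusted p = 0.008968), on 9 counts in all. The ratio of the summed counts was 0.207, with a counting interval from 0.0886 to 0.430. KO clone E3 had a log2 fold change of -0.87, with a 95% interval from -1.78 to 0.04 (adjusted p = 0.1368). The difference between the clones, -1.35, was not called (adjusted p = 0.07923).

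Fosb, whose protein and truncated form accumulate on repeated stimulation of neurons, spans bases 19036621 to 19043976 of chromosome 7 (minus strand). It stood at 1.42, 1.39 and 1.29 CPM in WT, 2.74, 1.59 and 1.36 CPM in KO clone E3, and 0.862, 1.11 and 0.610 CPM in KO clone E5. Replicate 1 of KO clone E3 was well above the other libraries of that clone, and KO clone E5 was below both other lines. Neither clone was called against WT: the log2 fold change was 0.48 in KO clone E3 (95% interval -0.16 to 1.11, adjusted p = 0.2422) and -0.68 in KO clone E5 (interval -1.35 to 0.00, adjusted p = 0.1497). The clones differed from each other by -1.15 on the log2 scale (SE 0.300, adjusted p = 0.01465). Without replicate 3 of KO clone E5 this was -0.94 and was not called (adjusted p = 0.06281).

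Fosl1 spans bases 5497575 to 5505974 of chromosome 19 (plus strand). Its level was 114, 132 and 128 CPM in WT, 133, 126 and 127 CPM in KO clone E3, and 200, 192 and 159 CPM in KO clone E5. Every E5 library was above the others, with replicate 3 the lowest of that clone. Fosl1 was 1.47-fold higher in KO clone E5 than in WT (log2 fold change 0.56, SE 0.109, adjusted p = 0.004708) and 1.43-fold higher than in KO clone E3 (adjusted p = 0.005077). The log2 fold change of KO clone E3 against WT was 0.05, with a 95% interval from -0.20 to 0.29. An exon of Ccdc85b lies on the opposite strand of the same span, and Ccdc85b was higher in KO clone E3 (log2 fold change 1.13, adjusted p = 0.004254) and at 0.58 in KO clone E5 (adjusted p = 0.09942). The strand setting of the counting is not given in the sources used here, so reads of the pair may not be separated. Of 58 tested genes within 500 kb of Fosl1, 27 were higher and 3 lower in KO clone E3, beside 15.7% and 14.7% of all genes. Their median log2 fold change was 0.45. In KO clone E5, 5 were higher and 3 lower, beside 8.96% and 11.7% of all genes.

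Fosl2, which encodes FRA-2, spans bases 32293145 to 32315186 of chromosome 5 (plus strand). It stood at 93.0, 92.0 and 99.7 CPM in WT, 102, 90.7 and 64.4 CPM in KO clone E3, and 93.6, 89.0 and 78.9 CPM in KO clone E5. Replicate 3 of KO clone E3 was the lowest library, and the 3 lines overlapped. The log2 fold change was -0.15 in KO clone E3 (95% interval -0.49 to 0.19) and -0.12 in KO clone E5 (interval -0.46 to 0.21).

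Summed per kb, the FOS family stood at 80.9 ± 4.97 CPM per kb in WT cells, 81.8 ± 4.48 in KO clone E3 and 111 ± 12.9 in KO clone E5. Fosl1 made up 82.5% ± 1.17 of it in WT cells, 84.4% ± 2.85 in KO clone E3 and 88.5% ± 0.371 in KO clone E5. Fos and Fosb each made up under 1% in every library.

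Jun, the AP-1 partner that JNK phosphorylates, spans bases 94937271 to 94940459 of chromosome 4 (minus strand) in a single exon. It had 155, 166 and 168 CPM in WT, 156, 139 and 151 CPM in KO clone E3, and 155, 158 and 141 CPM in KO clone E5. The 3 lines overlapped. The log2 fold change was -0.14 in KO clone E3 (95% interval -0.34 to 0.07) and -0.11 in KO clone E5 (interval -0.31 to 0.10), so that these data bound a change in either clone to within those limits. Junos, a noncoding RNA with an exon on the opposite strand, was higher in KO clone E5 (log2 fold change 1.07, adjusted p = 0.0006493) and at 0.00 in KO clone E3.

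Junb, which can oppose JUN in proliferation control, spans bases 85701113 to 85705347 of chromosome 8 (minus strand). Its level was 31.5, 34.1 and 34.8 CPM in WT, 19.4, 17.5 and 25.5 CPM in KO clone E3, and 29.0, 32.1 and 29.0 CPM in KO clone E5. Every E3 library was below all others, and KO clone E5 overlapped with WT. Junb was 1.61-fold lower in KO clone E3 than in WT (log2 fold change -0.69, SE 0.136, adjusted p = 0.003697). Against WT, KO clone E5 was at -0.16 on the log2 scale, with a 95% interval from -0.45 to 0.14. The clones differed by 0.53 (SE 0.135, adjusted p = 0.01321), a call lost without replicate 2 of KO clone E5 (adjusted p = 0.05419) and under upper-quartile scaling (adjusted p = 0.05814). Prdx2, with an exon on the opposite strand of Junb, went the other way in KO clone E3 (log2 fold change 0.57, adjusted p = 0.02444).

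Jund, the JUN gene most often found at a steady level in resting cells, spans bases 71151599 to 71153265 of chromosome 8 (plus strand) in a single exon. It stood at 83.6, 77.6 and 78.8 CPM in WT, 107, 95.3 and 158 CPM in KO clone E3, and 74.3, 70.9 and 65.4 CPM in KO clone E5. Every E3 library was above WT, replicate 3 the most, and every E5 library was below WT. Jund was 1.50-fold higher in KO clone E3 than in WT (log2 fold change 0.58, SE 0.164, adjusted p = 0.02223). Without replicate 3 of that clone the log2 fold change was 0.33 and was still called (adjusted p = 0.003731). The call was lost without any 1 WT library (adjusted p = 0.05415, 0.08033 and 0.07424 without replicates 1, 2 and 3) and with only these lines in the fit (adjusted p = 0.06167). In KO clone E5 the log2 fold change was -0.19 and was not called (adjusted p = 0.4756), although it was called at -0.18 without replicate 3 of KO clone E3 (adjusted p = 0.04956). The clones differed by -0.77 on the log2 scale (SE 0.165, adjusted p = 0.005388). Of 38 tested genes within 500 kb of Jund, 10 were higher and 1 lower in KO clone E3, beside 15.7% and 14.7% of all genes. Between the clones, 3 were higher and 10 lower in KO clone E5, beside 14.7% and 17.2%. Gm11175, a noncoding RNA with an exon on the opposite strand of Jund, was at -0.12 in KO clone E3 and 0.04 in KO clone E5.

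Summed per kb, the JUN family stood at 118 ± 1.50 CPM per kb in WT cells, 130 ± 23.5 in KO clone E3 and 106 ± 5.86 in KO clone E5. Junb made up 15.7% ± 0.644 of it in WT cells, 8.82% ± 0.190 in KO clone E3 and 15.6% ± 0.820 in KO clone E5. Jund made up 40.8% ± 2.02, 54.8% ± 5.06 and 39.6% ± 1.06 in the same order.

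The KO clones were also compared with each other, with 5 of the 9 members called, beside 31.9% of all genes, 14.7% higher and 17.2% lower. Fosl1, Egr3 and Junb were higher in KO clone E5 than in KO clone E3, and Fosb and Jund were lower. Only Fosb met the DEG threshold, beside 11.0% of all genes, 3.49% higher and 7.52% lower. The libraries of the clones did not overlap for 6 of the 9 members, the 5 called and Fos, and for 44.6% of all genes. Without replicate 3 of KO clone E3, all 10 members were tested. Of these, 4 were called in KO clone E3 against WT, 4 in KO clone E5 against WT and 5 between the clones, beside 43.2%, 42.0% and 44.1% of all genes in that setting.

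For each member that met the DEG threshold in a KO clone, the genes with the nearest profile were found by the root mean square difference of centred log2 CPM over the 9 libraries, among 14592 other genes. For Egr1 these were Gm30978 (0.571), Slc35f2 (0.627) and Mtcl3 (0.647). They were far less abundant than Egr1, with 13 to 24 counts per WT library and 0 or 1 per KO library. For Fos they were Olr1 (0.269), which encodes a receptor for oxidized LDL, 5430430B14Rik (0.293) and Syngr4 (0.319). Olr1 had 42 to 67 counts per library in WT, 25 to 47 in KO clone E3 and 9 to 20 in KO clone E5.

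Beyond the members, a list of 36 other immediate early genes was read, of which 30 were tested. In KO clone E3, 2 were higher and 9 lower, beside 15.7% and 14.7% of all genes, with a median log2 fold change of -0.09 against 0.01 over all genes. For KO clone E5, 3 were higher and 8 lower, beside 8.96% and 11.7% of all genes, with a median of -0.04 against 0.00. Atf3, a stress-induced AP-1 partner, stood at 38.6 to 48.1 CPM in WT, 2.03 to 3.80 in KO clone E3 and 8.92 to 12.9 in KO clone E5, with log2 fold changes of -3.81 (adjusted p = 4.772e-06) and -2.06 (adjusted p = 8.994e-05). Ptgs2, the inducible cyclooxygenase, was lower in both clones, by -2.02 (adjusted p = 1.46e-05) and -1.72 (adjusted p = 2.162e-05) on the log2 scale. Klf4, Plk3, Dusp2 and Zfp36, named after their values were seen, were also called lower in both clones. Dusp1, named in the same way, was called higher in KO clone E3 and lower in KO clone E5. The others called higher were Gadd45b in KO clone E3, and Nr4a1, Tiparp and Klf2 in KO clone E5. Myc was lower in KO clone E3 (log2 fold change -1.49, adjusted p = 3.013e-05) and at 0.17 in KO clone E5, and the clones differed by 1.65 (adjusted p = 7.068e-06). Plk2, a polo-like kinase, was lower in KO clone E5 (log2 fold change -1.19, adjusted p = 9.845e-05) and at 0.10 in KO clone E3, a difference of -1.29 (adjusted p = 3.994e-05). Leaving out replicate 3 of KO clone E3 gave 16 calls in KO clone E3 and 19 in KO clone E5, beside 43.2% and 42.0% of all genes. Leaving out WT replicate 1 gave 7 in KO clone E3, beside 21.5% of all genes. In KO clone E5, 7 were called without any 1 WT library or replicate 2 of KO clone E5, beside 11.9% to 13.1% of all genes.

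**Figure D4:**
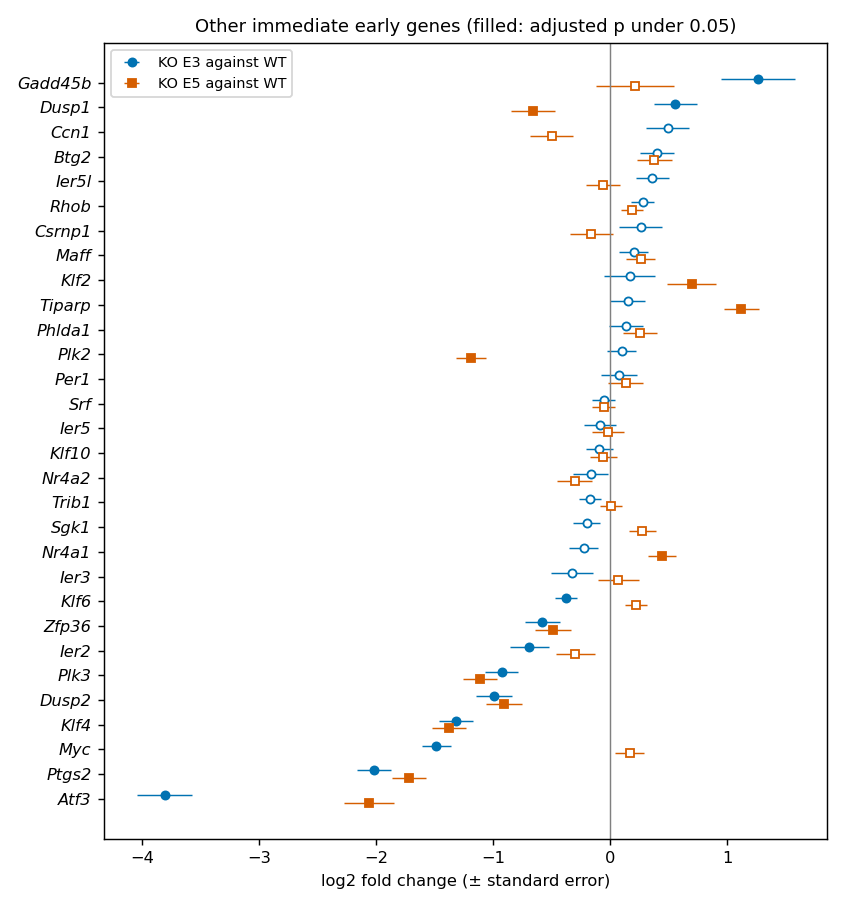
Log2 fold change against WT (horizontal axis, ± standard error) of the 30 tested genes on the list of other immediate early genes, as circles for KO clone E3 and squares for KO clone E5, filled where the adjusted p is under 0.05. Atf3 and Ptgs2 are farthest to the left in both clones, while Myc separates from 0 in KO clone E3 and Plk2 in KO clone E5.

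Among 13 AP-1 partners, 11 were tested, and 4 were lower and none higher in each clone, beside 14.7% of all genes lower in KO clone E3 and 11.7% in KO clone E5. The medians were -0.51 and -0.14. Besides Atf3, Mafg, a small MAF protein, was lower in both clones, at log2 fold changes of -0.62 (adjusted p = 0.0004658) and -0.26 (adjusted p = 0.04941). Batf had 11 to 19 counts per library in WT, 0 or 1 in KO clone E3 and 2 to 4 in KO clone E5, and was called lower in both clones. Batf3 was called lower in KO clone E5 (log2 fold change -1.85, adjusted p = 0.01011) and was at -0.48 in KO clone E3. Leaving out replicate 3 of KO clone E3 gave 7 calls in that clone and 5 in KO clone E5, beside 43.2% and 42.0% of all genes.

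All 9 upstream factors and corepressors were tested, and 1 was called in KO clone E3 and 2 in KO clone E5, beside 30.5% and 20.6% of all genes. The medians were -0.05 and 0.09. Nab2, a corepressor that binds EGR proteins and is itself an EGR1 target, was lower in KO clone E3 (log2 fold change -0.35, adjusted p = 0.01322) and at 0.09 in KO clone E5. Nab1, its relative, was higher in KO clone E5 (log2 fold change 0.90, adjusted p = 0.0002139), as was the ternary complex factor Elk3 (log2 fold change 0.46, adjusted p = 0.004594). Not called among the genes with the smallest p were Elk3 at 0.19 and Creb1 at -0.24 in KO clone E3, and Elk1 at 0.35 in KO clone E5. When replicate 3 of KO clone E3 was left out, 4 were called in each clone, beside 43.2% and 42.0% of all genes. When WT replicate 2 or 3 was left out, 0 were called in KO clone E3 by edgeR, beside 19.3% and 20.1%.

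Of 22 genes listed as AP-1 or EGR1 targets, 19 were tested. In KO clone E3, 6 were higher and 6 lower, and in KO clone E5, 1 was higher and 6 lower, beside 30.5% and 20.6% of all genes called, with medians of -0.05 and -0.27. Mmp3, a stromelysin that degrades matrix, was higher in KO clone E3 and lower in KO clone E5, at log2 fold changes of 1.45 (adjusted p = 2.092e-05) and -2.63 (adjusted p = 3.363e-07). Its level was 39.4 to 44.4 CPM in WT, 102 to 132 in KO clone E3 and 6.42 to 7.35 in KO clone E5. Thbs1, which encodes the CD47 ligand thrombospondin-1, was higher in KO clone E3 (log2 fold change 1.27, adjusted p = 0.0005393) and at 0.12 in KO clone E5. Spp1 was lower in KO clone E3 (log2 fold change -0.81, adjusted p = 0.00403) and at -0.51 in KO clone E5 (adjusted p = 0.05065). Il11 was lower in both clones, at -0.54 in KO clone E3 (adjusted p = 0.01879) and -2.00 in KO clone E5 (adjusted p = 1.389e-05). Plau, the urokinase gene, was also lower in both, at -0.69 (adjusted p = 0.007917) and -1.47 (adjusted p = 0.0001169). When replicate 3 of KO clone E3 was left out, 15 targets were called in that clone and 14 in KO clone E5, beside 43.2% and 42.0% of all genes. The count in KO clone E3 was 5 without WT replicate 2 and 6 without WT replicate 3, beside 19.3% and 20.1% of all genes. That in KO clone E5 was 4 without WT replicate 1, beside 13.1%.

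All 12 genes of the ERK feedback list were tested, which the ERK pathway induces and whose products mostly restrain it. In KO clone E3, 1 was higher and 5 lower, and in KO clone E5, 6 were lower and none higher, beside 30.5% and 20.6% of all genes called, with medians of -0.24 and -0.37. Dusp5, an ERK phosphatase, was lower in both clones, at -1.21 (adjusted p = 8.241e-05) and -0.66 (adjusted p = 0.003346). Etv5, an ETS factor, was lower in KO clone E3 at -1.07 (adjusted p = 0.0005163) and was at 0.04 in KO clone E5. Spry4, a Sprouty inhibitor of receptor signalling, was also lower in both clones, at -0.72 (adjusted p = 0.001307) and -1.11 (adjusted p = 0.0001016). Spry2 and Spry1 were lower in KO clone E5, at -1.44 (adjusted p = 0.0001105) and -1.37 (adjusted p = 0.001239), and were at -0.25 and -0.23 in KO clone E3.

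Heat shock genes, which handling stress can raise together with immediate early genes, were read as a check. Of 10 listed, 8 were tested, and 4 were higher and 1 lower in KO clone E3 and 3 higher in KO clone E5, beside 30.5% and 20.6% of all genes called. The medians were 0.42 and 0.18. Hspa1b was higher in both clones, at 1.63 in KO clone E3 (adjusted p = 0.0006858) and 0.83 in KO clone E5 (adjusted p = 0.03457), and so was Hspa8, at 0.64 (adjusted p = 0.001842) and 0.77 (adjusted p = 0.0007948). Dnajb1 and Bag3 were higher in KO clone E3, at 0.65 (adjusted p = 0.001007) and 0.53 (adjusted p = 0.001576), and were at 0.18 and 0.19 in KO clone E5. Hsp90aa1 was higher in KO clone E5 at 0.49 (adjusted p = 0.03364) and was at 0.31 in KO clone E3. The summed level was 5321 to 5408 CPM in WT, 5796 to 6610 in KO clone E3 and 6908 to 7742 in KO clone E5, and its part in the members' results was not tested. Only 1 heat shock gene was called in KO clone E5 without any 1 WT library, or without its own replicate 1 or 2. In those settings 11.9% to 13.1% of all genes were called.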

How the data were processed

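RNA-seq of 9 LLC libraries was analysed: 3 of WT cells and 3 of each CD47 KO clone. Per the labels, polyadenylated RNA was made into directional paired-end libraries. The submitters' processing notes name FastQC, Trimmomatic, STAR and GRCm39, and the authors deposited whole-number read counts of each gene in each library, not normalized. The counting tool, the annotation release and how strand was handled are not given in the sources used here. Each library could be tied to its line and replicate, and no row lacked a gene name.

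TMM-scaled counts were fitted by the quasi-likelihood method of edgeR (version 4.0.16), with the 3 lines in 1 model. filterByExpr (minimum count 10, minimum total count 15) kept 14593 genes, over which p-values were adjusted. Genes were called at an adjusted p under 0.05, and DEGs also had an absolute log2 fold change above 1. SE was taken as the size of the log2 fold change divided by the root of F. The coefficient of variation between replicates was 14.8%. Totals of 44257404 to 55095219 counts leave counting error small except for Egr2, Fos, Fosb and, in the KO libraries, Egr1. The test was first checked on simulated counts.

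Levels are CPM on TMM-scaled library sizes, per kb of GENCODE vM39 canonical transcript where genes are compared. Ranks by union exon length were the same except for Fosl2 and Junb in KO clone E3. Positions are those of the deposited table. Promoters came from RefSeq, with at least 1 for 7 of the 10 members.

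The members and gene lists were chosen with earlier results of these data known. Named genes were the members, Cd47, the 3 genes of each list with the smallest p in each clone against WT, and the 3 nearest profiles of each DEG member. Krt8, Krt18, Krt19, Epcam, Cdh1 and Cd68 are fixed markers, and genes overlapping a member are named for that overlap. Further genes of the list of other immediate early genes were named after their values were seen. Alternatives were DESeq2 (version 1.42.0), edgeR with the size factors of DESeq2 or with upper-quartile scaling, dropping the filter, a minimum of 10 counts in all libraries, fits of the compared lines alone, a replicate block and each library left out.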

Additional observations from a re-analysis of the deposited data

Results flagged for a closer look

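By the edgeR contrast of KO clone E5 against KO clone E3, 5 of the 9 members tested differed between the clones. Of all tested genes, 31.9% were called in that contrast. Egr3 was higher in KO clone E5 by 0.531 on the log2 scale, at 36.8 to 42.2 CPM against 24.2 to 33.0 (adjusted p = 0.01049). Fosb differed by -1.151, at 0.610 to 1.11 CPM in KO clone E5 against 1.36 to 2.74 in KO clone E3 (adjusted p = 0.01465). Fosl1 differed by 0.513, at 159 to 200 CPM against 126 to 133 (adjusted p = 0.005077). Junb differed by 0.532, at 29.0 to 32.1 CPM against 17.5 to 25.5 (adjusted p = 0.01321). Jund differed by -0.771, at 65.4 to 74.3 CPM against 95.3 to 158 (adjusted p = 0.005388). In each of these genes the 3 libraries of one clone lay apart from the 3 of the other. That was so for 44.6% of all genes. These 5 were taken because the contrast called them, so their lack of overlap adds no separate support. With both clones labelled CD47 KO, these differences are between clones of 1 genotype, and the calls of Egr3, Fosb and Junb were lost without 1 library of KO clone E5.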

How the results depend on the processing

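The lower Egr1 in both KO clones, the lower Egr3 and Junb in KO clone E3 and the higher Fosl1 in KO clone E5 were called under all 16 alternatives, and the lower Fos in KO clone E5 under the 15 that kept the gene. Replicate numbers did not pair the libraries (correlations of same-numbered deviations from -0.153 to 0.034). With the replicate block the members called were 4 in KO clone E3 against WT, 3 in KO clone E5 against WT and 5 between the clones. Of all genes, 25.1%, 15.8% and 26.6% were called in that setting, in the same order. Egr1 was there at -4.76 and -4.17 against WT. The block moved no member across the threshold. Of the members' values, 8 of 428 changed sign, none of them called. With 1 library left out, Fosl1 in KO clone E3 ranged from -0.016 (without WT replicate 1) to 0.084, and Fosl2 there from -0.293 to 0.018 (without E3 replicate 3). Between the clones Fosl2 ranged from -0.135 to 0.167 and Jun from -0.016 to 0.084, and under upper-quartile scaling they were at -0.057 and -0.063. Upper-quartile scaling moved the median of all genes between the clones to -0.10 and the split of calls in KO clone E3 against WT from 2296 higher and 2149 lower to 2715 and 1741, and between the clones from 2147 and 2514 to 1705 and 3054.

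With only the compared lines fitted, KO clone E5 against WT gave 5 members called, with Fosb and Jund added (adjusted p = 0.03335 and 0.02955). Over all genes it gave 6596 called in place of 3012, or 46.8% of those tested in place of 20.6%. Beside that 46.8%, the same setting gave 20 other immediate early genes, 4 upstream factors, 14 targets and 10 ERK feedback genes in that comparison. Between the clones it gave 3 AP-1 partners and 2 heat shock genes, beside 22% of all genes. At least 10 counts in every library removed Fos, leaving 1 DEG among the members in KO clone E5. It gave 2 AP-1 partners there and 3 between the clones, beside 18.5% and 30.9% of all genes. The cause of these moves was not tested beyond the genes and libraries left out.

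Leaving out 1 library gave 2875 to 6423 genes in KO clone E3 (19.3% to 43.2% of all tested) and 1767 to 6246 in KO clone E5 (11.9% to 42.0%). Between the clones it gave 3235 to 6555 (21.7% to 44.1%). The number was highest in each case without replicate 3 of KO clone E3. In KO clone E3 against WT the range was 3 to 5 members called and 1 to 2 DEGs (the added one Egr2), 7 to 16 other immediate early genes, 4 to 7 AP-1 partners, 0 to 4 upstream factors and 5 to 15 targets. In KO clone E5 against WT it was 3 to 4 members, 7 to 19 other immediate early genes, 2 to 4 upstream factors, 4 to 14 targets and 1 to 4 heat shock genes. Between the clones it was 3 to 6 members and 0 to 1 DEGs (Fosb lost), 9 to 17 other immediate early genes, 3 to 10 AP-1 partners, 2 to 5 upstream factors, 10 to 17 targets and 2 to 5 heat shock genes. Depth limits Egr2 and Fos, at 1 to 22 counts per library, and Egr1 in the KO libraries, at 22 to 81.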
